A study of Bos taurus with 18 samples.

Results

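The unfolded protein and heat shock genes described here are 39 genes for chaperones, folding enzymes, the sensors and transcription factors of the unfolded protein response, and the heat shock factor HSF1. They were taken from a named list by matching the gene column of the deposited count table, a rule that refers to no measured value, although the list was drawn up with earlier results of these data known. All 39 were found among the 27270 genes of the table, and all 39 passed the filter on low counts, which left 22202 genes for testing. The genes fell into 11 chaperones of the endoplasmic reticulum (ER), 4 ER disulfide isomerases, 4 genes of ER-associated degradation, 7 genes of unfolded protein response signalling, 10 cytosolic chaperones and co-chaperones, 2 mitochondrial chaperonins, and HSF1.

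RNA was sequenced from papillae, the projections of the rumen lining, of 9 cannulated Holstein cows that were not lactating, 5 of them controls and 4 given a supplement named PHY in the labels. The 18 libraries formed 4 groups: grain_PHY (PHY cows on a high-grain diet with 65% concentrate, n = 4), forage_PHY (PHY cows on 100% forage, n = 4), grain_control (control cows on the high-grain diet, n = 5) and forage_control (control cows on 100% forage, n = 5). The labels do not spell out PHY, and they do not say whether PHY cows were already receiving it when their forage biopsy was taken. Each cow gave a biopsy on each diet, but no label ties a library to a cow. Every p-value below therefore treats the libraries of a cow as independent, and replicate numbers only follow the order of deposit.

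Proteins that enter the secretory pathway fold in the ER, where the Hsp70-type chaperone BiP (gene HSPA5), the Hsp90-type chaperone GRP94 (HSP90B1), the lectins calreticulin and calnexin, and disulfide isomerases attend them. When unfolded proteins build up, the sensors IRE1 (ERN1), PERK (EIF2AK3) and ATF6 raise the ER chaperones, the degradation machinery and, through ATF4, the genes DDIT3 and TRIB3. In the cytosol a separate set of chaperones, with HSC70 (HSPA8) and the Hsp90 pair HSP90AA1 and HSP90AB1 at its centre, is raised by HSF1 after heat or other protein damage. The rumen epithelium is a stratified squamous lining that absorbs short-chain fatty acids and is exposed to acid after grain feeding.

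Libraries held 3953060 to 34471682 reads on genes, and the 39 genes took 0.302% to 0.718% of them. Levels are in CPM, a gene's reads in proportion to all reads of its library, scaled by TMM, a normalization that assumes most genes do not change. The TMM factor, which divides all CPM of a library, ran from 0.709 in forage_control 3 to 2.346 in grain_PHY 1. CPM are not corrected for gene length, so levels are compared between libraries and not between genes. The keratins KRT5, KRT14, KRT15 and KRT6A and the desmosome gene DSP stood at 373 CPM or more in every library, while KRT1, KRT4 and KRT10 stayed at or below 8.45 CPM. Several measures moved with diet in PHY cows. Grain_PHY totals reached at most 15474334 reads, against at least 18655841 in forage_PHY. Reads on 144 genes of olfactory receptors, whose usual site is the nose, ran from 42.1 to 345 CPM in grain_PHY and from 20.8 to 32.2 CPM in forage_PHY. The summed level of 19 epithelial markers ran from 6778 to 22170 CPM in grain_PHY and from 23260 to 25590 CPM in forage_PHY. Markers of B and plasma cells, which are rich in ER chaperones, summed to 22.1 to 58.7 CPM in grain_PHY, 12.2 to 17.8 CPM in forage_PHY, 14.8 to 41.2 CPM in grain_control and 7.07 to 23.9 CPM in forage_control, with 5 of 12 genes higher on grain over both arms and MZB1 at 0 in 3 libraries. On grain, 4 of 10 T and NK cell, 3 of 9 myeloid and 3 of 5 tested red blood cell markers rose too, 6 of 19 epithelial markers fell and 4 rose, and 0 of 9 fibroblast, 0 of 7 endothelial and 0 of 5 smooth muscle markers passed. Over all genes tested in the same fit, 18.1% rose and 13.8% fell. The B and plasma cell markers had medians over the libraries of 0.325 to 3.485 CPM. The share that rose among genes at the level of these markers was not computed. In control cows the read totals, the olfactory receptor reads and the epithelial markers overlapped between the diets. Epithelial markers summed to 8334 to 25580 CPM in grain_control and 13550 to 34130 CPM in forage_control. The part of these measures in the results below was not tested beyond the alternatives given. In bulk tissue, fewer cells of a type and less RNA per cell cannot be told apart.

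Over both arms, 7 of the 39 genes fell on grain and 1 rose, at an adjusted p under 0.05 (edgeR's quasi-likelihood test, Benjamini-Hochberg over all 22202 genes). The 7 were HSF1 (0.638 times the forage level), the small heat shock protein HSPB1 (0.547), the co-chaperone DNAJB1 (0.695), the mitochondrial chaperonin HSPE1 (0.654), the ER degradation genes SYVN1 (0.699) and EDEM1 (0.689), and the ER lectin CANX (0.666). They span the cytosol, the mitochondrion and the ER, and 1 of the 15 ER folding genes is among them. The gene that rose was TRIB3 (2.31 times), a pseudokinase induced by ATF4 and DDIT3. Over all genes tested, 13.8% fell, 18.1% rose, and 31.9% were called in either direction, with a median log2 fold change of 0.20. Most of the 39 genes are well expressed, however. Among the 8881 genes at the level of most of them (from their 10th to their 90th percentile of log2 CPM), 32.8% fell, 2.74% rose and the median was -0.37. TRIB3 lies below that range, so the 2.74% is not a share for genes at its level. The share that rose among genes as low as TRIB3 was not computed. The 39 genes had a median of -0.36, with 35 of 39 below 0, which is near that of the genes at their level. For 19 of the 39 genes every grain_PHY library lay below every forage_PHY library, as did 15.8% of all genes tested and 36.2% of the genes at the level of most members.

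These calls depended on single libraries, and the number of members called moved with that of the whole table. The count of 8 changed whichever of the 18 libraries was left out. Without grain_PHY 1, the library of fewest reads (3953060) and most olfactory receptor reads, 0 of the 39 genes and 1 of the 22479 genes tested passed. With olfactory receptor reads as a covariate, or with the 15 libraries of at least 10000000 reads, 0 members passed and so did 0 of all genes. The covariate did not overlap between the diets in PHY cows, so there it cannot be told apart from diet. The count was 2 without forage_PHY 1 (3.88% of all genes lower, 5.39% higher) and 3 without forage_PHY 2 (5.3% lower, 7.03% higher). It was 4 without grain_control 1, grain_control 4 or forage_control 5 (6.58% to 7.07% of all genes lower), and 5 without forage_PHY 3, forage_control 1 or forage_control 4 (7.96% to 8.65% lower). It was 15 without forage_control 2 (18.2% lower, 24.4% higher) and 17 without grain_control 5 (19.3% lower, 24% higher). The members' median ran from -0.43 without grain_control 5 to -0.23 without grain_PHY 1. With single libraries left out, log2 fold changes ran from -0.74 to -0.55 for HSF1, from -1.03 to -0.71 for HSPB1, from -0.57 to -0.44 for SYVN1 and from -0.64 to -0.40 for EDEM1. They ran from -0.68 to -0.47 for CANX, from -0.62 to -0.40 for DNAJB1, from -0.72 to -0.46 for HSPE1 and from 0.82 to 1.43 for TRIB3. The log2 fold changes of CANX, DNAJB1, HSPE1 and TRIB3 changed sign under the covariate, and those of HSF1, HSPB1, SYVN1 and EDEM1 did not.

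**Figure D1:**
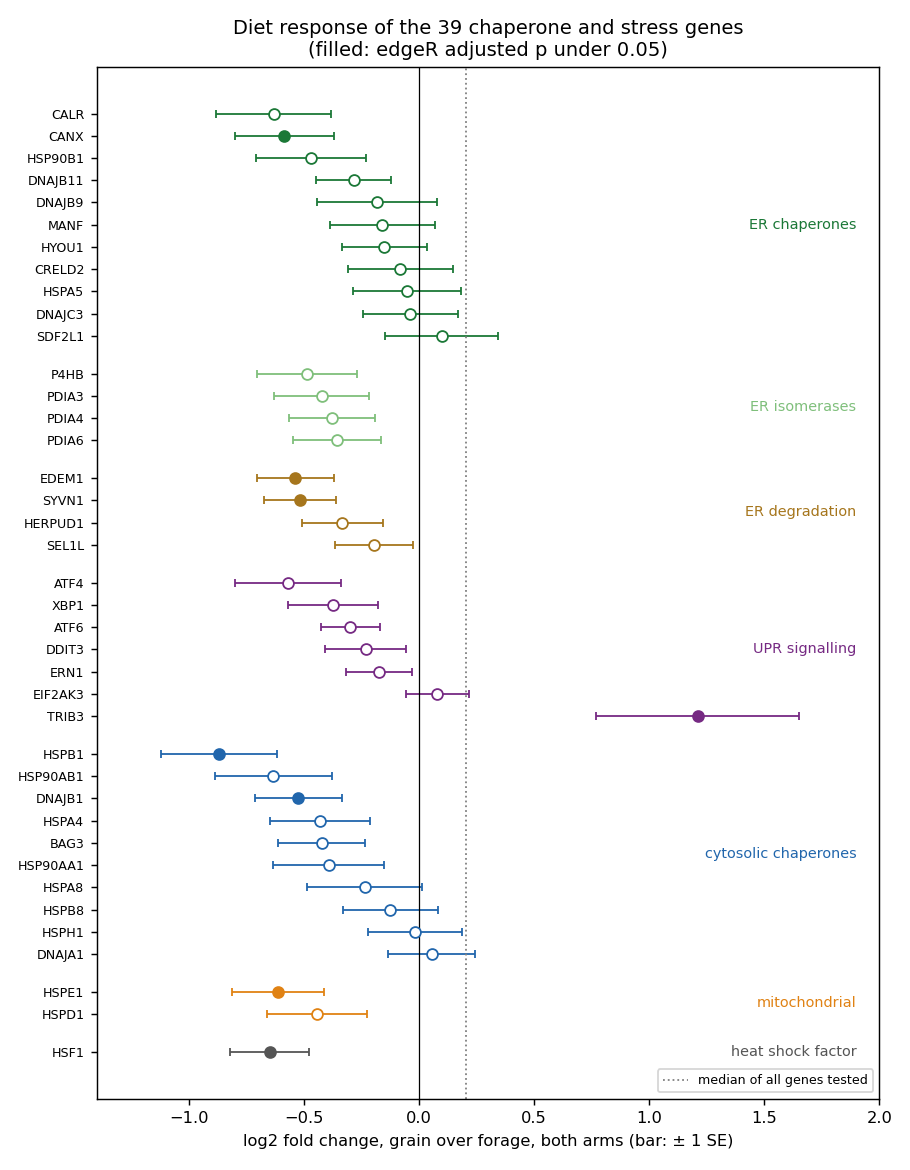
Log2 fold change of grain over forage over both arms (x axis) for each of the 39 genes, ordered by role and, within a role, by value. Bars are ± 1 SE, filled points have an adjusted p under 0.05, and the dotted line is the median of all genes tested, 0.20. Filled points are 7 genes left of 0 and TRIB3 on the right at 1.21, while HSPA5, HSPH1 and DNAJC3 sit next to 0.

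Among the ER chaperones, 1 of 11 genes fell (CANX) and none rose, with a median log2 fold change of -0.16 for grain against forage. By comparison, 13.8% of all genes tested fell, as did 32.8% of genes at the level of most members, whose median was -0.37. HSPA5, which encodes BiP and is the usual readout of the unfolded protein response, had 41.2, 128, 115 and 125 CPM in grain_PHY libraries, against 146, 122, 168 and 104 CPM in forage_PHY libraries. Its values were 90.5, 180.1, 180, 79.8 and 204 CPM in grain_control libraries, against 117, 77.5, 97.3, 151 and 156 CPM in forage_control libraries. Grain_PHY 1 was the lowest library of all and 3 grain_control libraries were the highest, so the groups overlapped within each arm. The log2 fold change over both arms was -0.05 ± 0.23 (SE, adjusted p = 0.858).

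HSP90B1, whose protein GRP94 folds selected secreted and membrane proteins, had 123, 268, 295 and 270 CPM in grain_PHY libraries, against 442, 372, 437 and 311 CPM in forage_PHY libraries. In the control arm it had 146, 323, 351, 255 and 468 CPM in grain_control libraries, against 427, 199.9, 275, 362 and 547 CPM in forage_control libraries. All 4 grain_PHY libraries lay below all 4 forage_PHY libraries, and the control groups overlapped. The log2 fold change was -0.47 ± 0.24 (SE, adjusted p = 0.112). CALR, the soluble lectin of the ER, averaged 229.9 ± 91.5 CPM on grain and 349 ± 96.9 CPM on forage (SD, n = 9 each), with a log2 fold change of -0.63 ± 0.25 (SE, adjusted p = 0.0534). CANX, its membrane-bound partner, averaged 174 ± 59.2 CPM on grain and 256 ± 59.6 CPM on forage (SD, n = 9 each), and fell, with a log2 fold change of -0.59 ± 0.21 (SE, adjusted p = 0.042). That call was lost without any 1 of 12 of the 18 libraries. Both lectins lay lower in all 4 grain_PHY libraries than in any forage_PHY library.

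Several J-domain co-chaperones of BiP were measured. DNAJB11 (ERdj3), which binds unfolded chains in the ER lumen, had 10.4, 12.6, 13.8 and 14.8 CPM in grain_PHY libraries, against 23.3, 15.7, 23.5 and 16.2 CPM in forage_PHY libraries. It had 15.1, 15.3, 19.8, 15.4 and 23.8 CPM in grain_control libraries, against 22.6, 13.3, 11.9, 16.6 and 23.1 CPM in forage_control libraries. The grain_PHY libraries lay below every forage_PHY library and also below every grain_control library. The log2 fold change over both arms was -0.29 ± 0.16 (SE, adjusted p = 0.148). DNAJC3 (p58IPK), another luminal co-chaperone, had 10.6, 26.2, 17.8 and 17.1 CPM in grain_PHY libraries, against 23.9, 26.6, 24.5 and 17.6 CPM in forage_PHY libraries. Its control-arm values were 19.6, 34.9, 19.2, 19.1 and 39.2 CPM in grain_control libraries, against 18.5, 14.2, 14.2, 30.9 and 29.9 CPM in forage_control libraries. All groups overlapped, and the log2 fold change was -0.04 ± 0.21 (SE, adjusted p = 0.884).

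DNAJB9 (ERdj4), which represses the sensor IRE1, had 3.03, 3.06, 4.03 and 5.11 CPM in grain_PHY libraries, against 6.27, 5.14, 6.59 and 4.09 CPM in forage_PHY libraries. It had 3.02, 10.5, 5.45, 3.08 and 12.6 CPM in grain_control libraries, against 6.26, 5.44, 4.40, 9.89 and 5.07 CPM in forage_control libraries. Grain_control 2 and grain_control 5 were the highest libraries, grain_control 1 and grain_PHY 1 the lowest, and no pair of groups was apart. The log2 fold change was -0.18 ± 0.26 (SE, adjusted p = 0.566). CRELD2, a target of ATF6 with disulfide isomerase activity, had 4.98, 2.41, 5.71 and 6.19 CPM in grain_PHY libraries, against 6.91, 6.26, 6.53 and 4.68 CPM in forage_PHY libraries. It had 5.198, 5.55, 5.90, 2.64 and 6.17 CPM in grain_control libraries, against 4.45, 2.87, 5.07, 3.48 and 6.69 CPM in forage_control libraries. These groups overlapped as well, and the log2 fold change was -0.08 ± 0.23 (SE, adjusted p = 0.774). The remaining ER chaperones were SDF2L1 at 0.10, the large Hsp70 HYOU1 at -0.15 and the secreted factor MANF at -0.16, with adjusted p of 0.749, 0.494 and 0.561.

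The ER disulfide isomerases form and reshuffle disulfide bonds in folding proteins, and 0 of 4 passed the test, with log2 fold changes from -0.49 (P4HB) to -0.36 (PDIA6). The median of genes at the level of most members was -0.37, and 32.8% of those genes fell, against 13.8% of all genes tested. PDIA3 (ERp57), which works with calreticulin and calnexin on glycoproteins, had 44.95, 98.8, 86.2 and 84.7 CPM in grain_PHY libraries, against 152, 124, 128 and 107 CPM in forage_PHY libraries. In control cows it had 52.6, 125, 107, 85.5 and 131 CPM in grain_control libraries, against 128, 70.5, 80.1, 118 and 157 CPM in forage_control libraries. Grain_PHY and forage_PHY did not overlap, the control groups did, and the log2 fold change was -0.42 ± 0.21 (SE, adjusted p = 0.101). PDIA4 (ERp72) had 31.4, 40.9, 55.8 and 59.4 CPM in grain_PHY libraries, against 77.6, 54.3, 83.05 and 54.99 CPM in forage_PHY libraries. It had 28.4, 65.9, 51.3, 39.7 and 70.1 CPM in grain_control libraries, against 73.6, 49.2, 49.7, 59.3 and 69.3 CPM in forage_control libraries. Grain_PHY 3 and grain_PHY 4 exceeded forage_PHY 2 and forage_PHY 4, so the PHY groups overlapped, and the log2 fold change was -0.38 ± 0.19 (SE, adjusted p = 0.103). At an unadjusted p under 0.05, 1 of the 4 isomerases was lower (P4HB, adjusted p = 0.0762).

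Of the ER degradation genes, 2 of 4 fell and the median log2 fold change was -0.43. That median is near the -0.37 of genes at the level of most members, of which 32.8% fell, against 13.8% of all genes tested. SYVN1, the ubiquitin ligase HRD1 that marks misfolded ER proteins, had 14.2, 15.1, 19.8 and 17.7 CPM in grain_PHY libraries, against 26.2, 27.6, 24.1 and 26.9 CPM in forage_PHY libraries. It had 9.79, 14.97, 21.7, 20.5 and 23.2 CPM in grain_control libraries, against 25.5, 16.02, 25.4, 23.6 and 27.9 CPM in forage_control libraries. All 9 grain libraries lay below the forage median, and in PHY cows the diets did not overlap. SYVN1 fell, with a log2 fold change of -0.52 ± 0.16 (SE, adjusted p = 0.0257), a call lost without grain_PHY 1, forage_PHY 1 or forage_PHY 2.

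EDEM1, a lectin that hands misfolded glycoproteins to degradation, had 5.96, 12.4, 15.3 and 12.1 CPM in grain_PHY libraries, against 24.3, 19.5, 21.1 and 17.6 CPM in forage_PHY libraries. It had 14.5, 16.2, 13.6, 13.9 and 20.9 CPM in grain_control libraries, against 16.98, 18.8, 12.3, 22.6 and 22.2 CPM in forage_control libraries. The PHY groups were apart, with grain_PHY 1 lowest at 5.96 CPM, and the control groups overlapped. EDEM1 fell, with a log2 fold change of -0.54 ± 0.17 (SE, adjusted p = 0.0263), a call lost without grain_PHY 1 or forage_PHY 1. HERPUD1, a membrane organizer of the degradation complex and a sensitive target of ER stress, had 11.5, 18.2, 16.4 and 20.8 CPM in grain_PHY libraries, against 28.6, 25.2, 25.1 and 22.01 CPM in forage_PHY libraries. It had 14.1, 27.5, 18, 18.7 and 33.7 CPM in grain_control libraries, against 19.8, 19.96, 17.2, 32.7 and 28.8 CPM in forage_control libraries. The PHY groups did not overlap, and the log2 fold change was -0.33 ± 0.18 (SE, adjusted p = 0.124). SEL1L, the adaptor of SYVN1, had a log2 fold change of -0.20 ± 0.17 (SE, adjusted p = 0.336).

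Among the 7 signalling genes, 1 rose, none fell, and the median log2 fold change was -0.23. Of all genes tested, 18.1% rose and 13.8% fell, and of genes at the level of most members 2.74% rose and 32.8% fell. XBP1, the transcription factor that IRE1 activates by splicing its mRNA, had 23.3, 53.2, 48.5 and 49.7 CPM in grain_PHY libraries, against 57.9, 64.5, 64.3 and 57.4 CPM in forage_PHY libraries. It had 25.4, 60.02, 56.8, 37.6 and 75.2 CPM in grain_control libraries, against 56.7, 47.6, 54.9, 79.9 and 68.2 CPM in forage_control libraries. The gene-level count does not separate spliced from unspliced XBP1. The PHY groups did not overlap, and the log2 fold change was -0.37 ± 0.20 (SE, adjusted p = 0.122). ATF4, the transcription factor of the PERK branch and of the wider integrated stress response, had 23.3, 80.6, 78.8 and 91.9 CPM in grain_PHY libraries, against 118, 116, 111 and 102 CPM in forage_PHY libraries. It had 41.7, 108, 87.7, 71.7 and 114 CPM in grain_control libraries, against 132, 95.1, 74.7, 138 and 133 CPM in forage_control libraries. All 9 grain libraries were below the forage median, and the log2 fold change was -0.57 ± 0.23 (SE, adjusted p = 0.0556), which passed with limma, with DESeq2 and without forage_control 2, forage_control 3, grain_control 5 or grain_PHY 4.

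DDIT3, the stress-induced factor CHOP, had 4.87, 8.26, 5.95 and 10.2 CPM in grain_PHY libraries, against 5.96, 8.51, 6.92 and 9.65 CPM in forage_PHY libraries. It had 5.32, 5.10, 7.51, 6.96 and 5.79 CPM in grain_control libraries, against 9.13, 9.44, 8.47, 6.79 and 6.33 CPM in forage_control libraries. The groups overlapped in both arms, and the log2 fold change was -0.23 ± 0.17 (SE, adjusted p = 0.269). TRIB3 had the lowest mean CPM of the 39 genes, with 6.39, 2.41, 1.32 and 0.884 CPM in grain_PHY libraries, against 0.412, 1.34, 1.44 and 1.17 CPM in forage_PHY libraries. It had 5.32, 1.89, 2.01, 3.44 and 2.10 CPM in grain_control libraries, against 1.81, 2.81, 0.6, 0.859 and 0.807 CPM in forage_control libraries. The highest values were in grain_PHY 1 and grain_control 1, the libraries of fewest reads and most olfactory receptor reads, and the diets overlapped in both arms. TRIB3 rose, with a log2 fold change of 1.21 ± 0.44 (SE, adjusted p = 0.0415), and that call was lost without any 1 of 11 of the 18 libraries. Thinned to 3953060 reads per library, TRIB3 was not called. The sensors stood at -0.30 for ATF6, -0.17 for ERN1 and 0.08 for EIF2AK3, with adjusted p of 0.0686, 0.31 and 0.632.

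Of the cytosolic chaperones, 2 of 10 fell (HSPB1 and DNAJB1), none rose, and the median log2 fold change was -0.41. Genes at the level of most members had a median of -0.37 and 32.8% of them fell, against 13.8% of all genes tested. HSPA8, the constitutive Hsp70 HSC70, had 272, 576, 512 and 516 CPM in grain_PHY libraries, against 686, 519, 781 and 429.5 CPM in forage_PHY libraries. It had 305, 710.1, 566, 429.5 and 936 CPM in grain_control libraries, against 725, 309, 545, 559.7 and 1044 CPM in forage_control libraries. The diets overlapped in both arms, and the log2 fold change was -0.24 ± 0.25 (SE, adjusted p = 0.432). HSPH1 (HSP105), a nucleotide exchange factor of Hsp70, had 20.4, 37.6, 34.7 and 49.5 CPM in grain_PHY libraries, against 38.8, 36.6, 43.2 and 31.6 CPM in forage_PHY libraries. It had 25.8, 40.1, 52.96, 33.4 and 63.3 CPM in grain_control libraries, against 48.6, 19.96, 48, 38.4 and 54.4 CPM in forage_control libraries. The lowest values were in forage_control 2 and grain_PHY 1, the groups overlapped, and the log2 fold change was -0.02 ± 0.20 (SE, adjusted p = 0.946).

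HSP90AA1, the inducible cytosolic Hsp90, had 390.3, 702, 654 and 756 CPM in grain_PHY libraries, against 1077, 771, 1016 and 763 CPM in forage_PHY libraries. It had 383, 812, 769.8, 597 and 1229 CPM in grain_control libraries, against 1097, 514, 668, 844 and 1388 CPM in forage_control libraries. Grain_PHY 4 came close to forage_PHY 4 without reaching it, so the PHY groups were just apart, and the log2 fold change was -0.39 ± 0.24 (SE, adjusted p = 0.179). HSP90AB1, the constitutive Hsp90, averaged 592 ± 257 CPM on grain and 909.8 ± 215 CPM on forage (SD, n = 9 each), with a log2 fold change of -0.63 ± 0.25 (SE, adjusted p = 0.0553).

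HSPB1 (HSP27), a small heat shock protein abundant in differentiating squamous epithelium, had 89.5, 170.5, 210.3 and 290.2 CPM in grain_PHY libraries, against 365, 358, 377 and 366 CPM in forage_PHY libraries. It had 112, 159.7, 183, 153 and 348 CPM in grain_control libraries, against 257, 271, 179, 418 and 531 CPM in forage_control libraries. The forage_PHY libraries lay within a narrow range, from 358 to 377 CPM, every grain_PHY library was lower, and all 9 grain libraries were below the forage median. HSPB1 fell, with a log2 fold change of -0.87 ± 0.25 (SE, adjusted p = 0.0228), and without grain_PHY 1 it stood at -0.71 ± 0.23, without a call (adjusted p = 0.0666). DNAJB1 (HSP40), a J-domain partner of Hsp70 that HSF1 induces, had 15.7, 29.2, 25.8 and 29.8 CPM in grain_PHY libraries, against 42.96, 39.7, 44.5 and 38.8 CPM in forage_PHY libraries. It had 16.7, 31.1, 31.98, 25.3 and 44.3 CPM in grain_control libraries, against 37.5, 22.9, 28.1, 46.8 and 52.5 CPM in forage_control libraries. The PHY groups did not overlap, the control groups did, and DNAJB1 fell, with a log2 fold change of -0.53 ± 0.19 (SE, adjusted p = 0.0399), a call lost without any 1 of 11 libraries. Without a call were HSPA4 at -0.43, BAG3, a co-chaperone that links Hsp70 to autophagy, at -0.42, its partner HSPB8 at -0.12 and DNAJA1 at 0.06, with adjusted p from 0.0755 to 0.814.

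The mitochondrial chaperonins HSPD1 (HSP60) and HSPE1 (HSP10) form the chamber in which imported proteins fold. HSPD1 had 108, 224, 247 and 289.7 CPM in grain_PHY libraries, against 369.9, 337, 343 and 322 CPM in forage_PHY libraries. It had 159, 348, 257, 211 and 396 CPM in grain_control libraries, against 365, 221, 274, 326 and 423 CPM in forage_control libraries. The PHY groups did not overlap, and the log2 fold change was -0.44 ± 0.22 (SE, adjusted p = 0.1). HSPE1 averaged 38.8 ± 13.1 CPM on grain and 58.5 ± 12.3 CPM on forage (SD, n = 9 each) and fell, with a log2 fold change of -0.61 ± 0.20 (SE, adjusted p = 0.0295), a call lost without any 1 of 6 libraries.

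HSF1, the transcription factor of the heat shock response, had 16.1, 21.3, 23.5 and 30.3 CPM in grain_PHY libraries, against 42.2, 43.7, 34.8 and 31.7 CPM in forage_PHY libraries. It had 16.1, 23.1, 27.6, 23.97 and 37.7 CPM in grain_control libraries, against 46.7, 29.7, 27.9, 36.8 and 48.5 CPM in forage_control libraries. Of the 9 grain libraries, 8 were below the forage median and 7 below the lowest forage library, which was forage_control 3. HSF1 fell, with a log2 fold change of -0.65 ± 0.17 (SE, adjusted p = 0.0216), the smallest p among the 39 genes. Without grain_PHY 1 it stood at -0.55 ± 0.17 and the call was lost (adjusted p = 0.0635). The RNA level says nothing of the HSF1 protein, whose activity is set after translation.

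**Figure D2:**
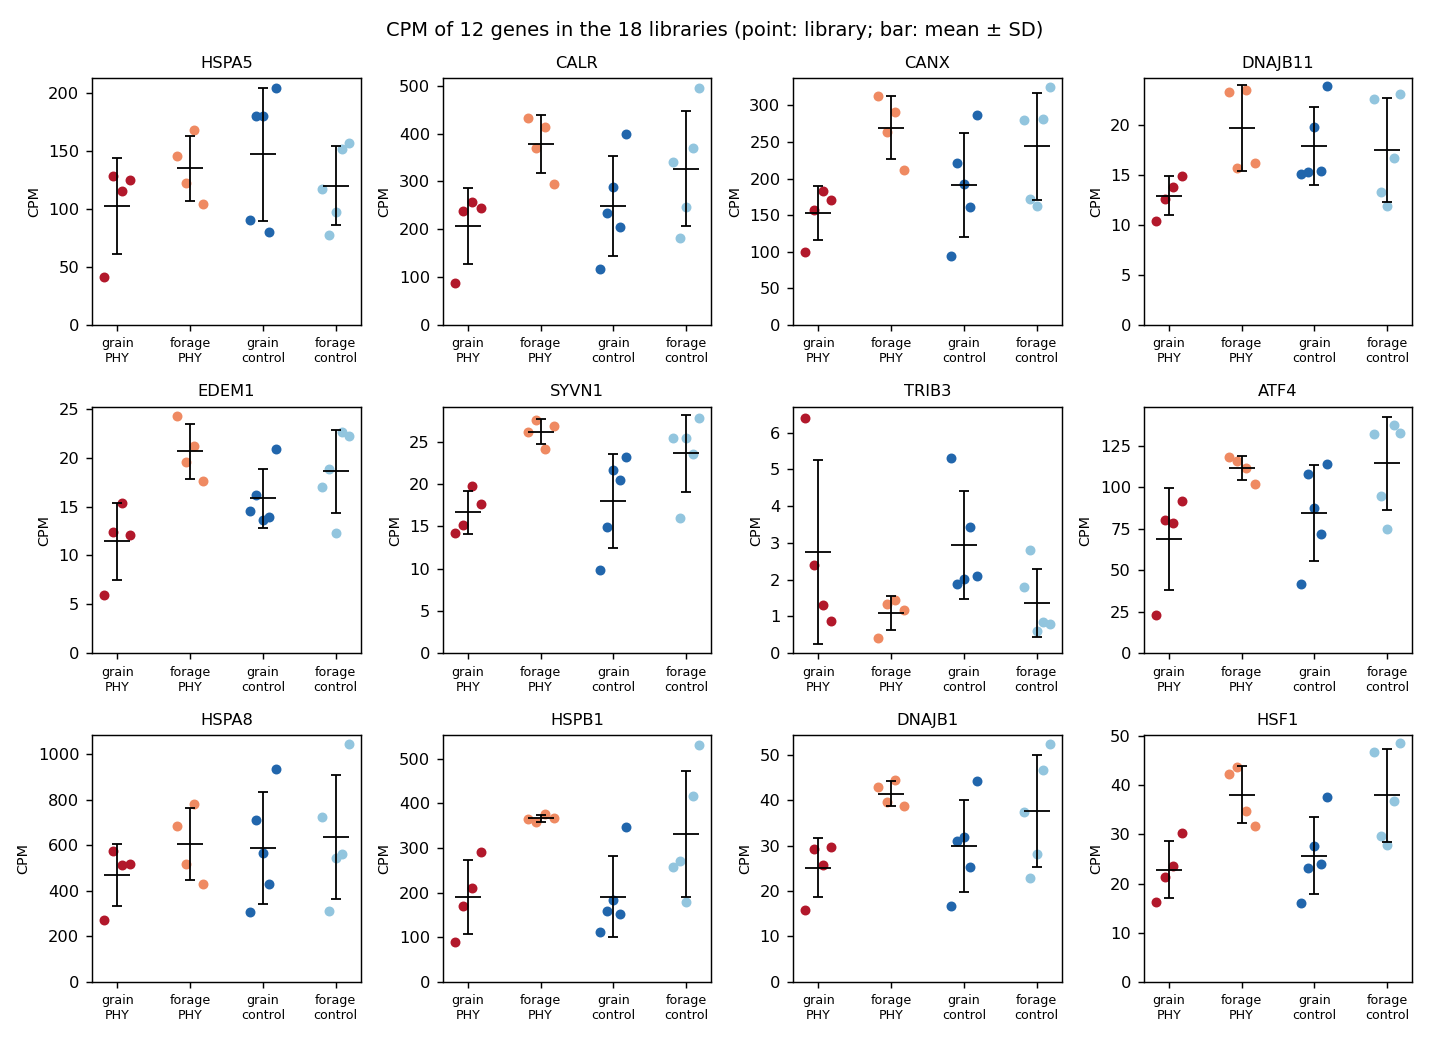
CPM of 12 of the 39 genes (y axis, starting at 0) by group, with a point per library and the mean ± SD as bars. In HSPA5 and HSPA8 the diets overlap, in CALR, CANX, DNAJB11, SYVN1, EDEM1, HSPB1, DNAJB1, ATF4 and HSF1 all 4 grain_PHY points lie below the forage_PHY points, and in TRIB3 the highest points are a grain_PHY and a grain_control library.

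Across libraries, the summed CPM of the ER and of the cytosolic chaperones went up and down together. Both sums of a library are divided by the same read total and TMM factor, so shared scaling moves both. Other genes of similar level were not compared in this way. The 15 ER chaperones and isomerases summed to 1098 ± 332 CPM in grain_PHY, 1780 ± 297 CPM in forage_PHY, 1395 ± 498 CPM in grain_control and 1593 ± 504 CPM in forage_control (SD, n = 4, 4, 5 and 5). The 10 cytosolic chaperones summed to 2042 ± 611 CPM in grain_PHY, 3069 ± 465.6 CPM in forage_PHY, 2428 ± 1040 CPM in grain_control and 3064 ± 1069 CPM in forage_control. Single libraries ran from 601 to 2251 CPM for the ER sum and from 1139 to 4652 CPM for the cytosolic sum, while the ratio of the sums stayed between 0.484 and 0.635. It averaged 0.537 ± 0.0275 in grain_PHY against 0.579 ± 0.0126 in forage_PHY, and 0.586 ± 0.0489 in grain_control against 0.524 ± 0.0404 in forage_control.

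The ratio of sums is led by the genes of highest CPM, so the mean log2(CPM + 1) of the cytosolic genes was also subtracted from that of the ER genes in each library. This difference averaged -1.26 ± 0.13 in grain_PHY against -1.24 ± 0.13 in forage_PHY, and -1.13 ± 0.17 in grain_control against -1.303 ± 0.19 in forage_control. Grain minus forage was -0.02 in PHY cows, 0.17 in control cows and 0.07 over both arms. The spread between libraries of a group (pooled SD) was 0.16, so the control value is about as large as that spread and the others are smaller. PHY minus control was 0.07 on forage and -0.12 on grain. No test was made of a score over chosen genes, and all groups overlapped. None of the alternatives moved one of these differences by more than 1 SD. Most of the differences are smaller than that limit, so staying within it does not show that they hold. With single libraries left out, grain minus forage ran from -0.0714 to 0.0245 in PHY cows and from 0.1159 to 0.2346 in control cows.

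**Figure D3:**
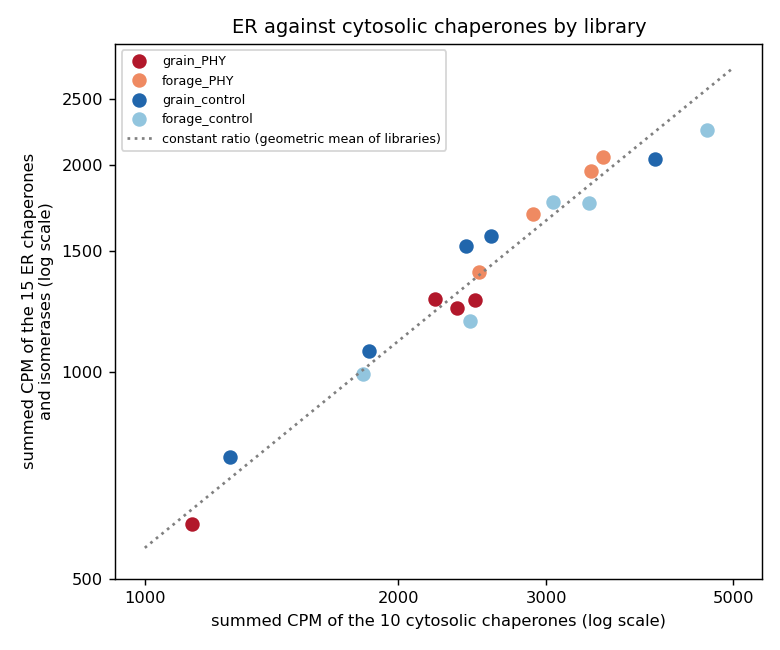
Summed CPM of the 15 ER chaperones and isomerases (y axis) against that of the 10 cytosolic chaperones (x axis), both on log scales, with a point per library coloured by group. The dotted line marks a constant ratio; the libraries follow it from grain_PHY 1 at the lower left to forage_control 5 at the upper right, with ratios from 0.484 to 0.635.

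Ratios of reads between partner genes of the same library need no normalization, and 11 such ratios were computed; the pairs were chosen after gene values had been seen, so they are descriptions. BiP took more reads relative to calreticulin in 8 of 9 grain libraries than in any forage library, while its ratio to HYOU1 overlapped between the diets. HSPA5 over CALR was 0.473, 0.540, 0.449 and 0.510 in grain_PHY libraries, against 0.337, 0.330, 0.406 and 0.351 in forage_PHY libraries. It was 0.778, 0.767, 0.626, 0.389 and 0.510 in grain_control libraries, against 0.344, 0.429, 0.395, 0.410 and 0.316 in forage_control libraries. These values averaged 0.493 ± 0.0401 in grain_PHY against 0.356 ± 0.0344 in forage_PHY, and 0.614 ± 0.167 in grain_control against 0.379 ± 0.0472 in forage_control. Of the 9 grain libraries, 8 lay above every forage library, the exception being grain_control 4, and among libraries of at least 10000000 reads 6 of 6 did. The mean on grain was 1.52 times that on forage. The diets did not overlap in PHY cows; HSPA5 divided by each of 8879 other genes at the level of most members gave such a separation for 1.4% of them. HSPA5 over HSP90B1 averaged 0.417 ± 0.0664 in grain_PHY against 0.344 ± 0.0269 in forage_PHY, and 0.488 ± 0.119 in grain_control against 0.344 ± 0.0628 in forage_control, with 6 of 9 grain libraries above all forage libraries. HSPA5 over HYOU1 averaged 2.26 ± 0.594 in grain_PHY against 2.42 ± 0.129 in forage_PHY, and 2.77 ± 0.365 in grain_control against 2.33 ± 0.326 in forage_control. In PHY cows 2 of 4 grain libraries lay below all forage libraries and 1 above, and over both arms grain stood at 1.07 times forage.

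The ratio of the lectins overlapped between the diets in both arms. CALR over CANX averaged 1.31 ± 0.291 in grain_PHY against 1.40 ± 0.0176 in forage_PHY, and 1.29 ± 0.164 in grain_control against 1.32 ± 0.202 in forage_control, so that grain stood at 0.956 times forage. In the degradation complex, SEL1L over SYVN1 averaged 2.75 ± 0.701 on grain against 2.17 ± 0.348 on forage (n = 9 each), with overlap in both arms.

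In the cytosol, HSPA8 over HSP90AB1 averaged 0.905 ± 0.153 in grain_PHY against 0.666 ± 0.131 in forage_PHY, and 0.956 ± 0.116 in grain_control against 0.677 ± 0.111 in forage_control. All 5 grain_control libraries lay above all forage_control libraries, while in PHY cows the diets overlapped. HSPA8 divided by each of 8880 other genes at the level of most members gave such a separation for 0.315% of them. HSP90AB1 has a higher CPM than those genes, so that share is not one for denominators of its level. DNAJA1 over DNAJB1, both J-domain partners of Hsp70, averaged 1.69 ± 0.329 in grain_PHY against 1.04 ± 0.108 in forage_PHY without overlap, a separation that 12.1% of the denominators gave for DNAJA1. In control cows it averaged 1.64 ± 0.166 in grain_control against 1.18 ± 0.266 in forage_control, with overlap through forage_control 3. HSP90AA1 over HSP90AB1, the inducible over the constitutive form, was 1.24 times as high on grain as on forage, with 6 of 9 grain libraries above all forage libraries. Among libraries of at least 10000000 reads it was 1.16 times as high, with 3 of 6 grain libraries above all forage libraries. HSPA8 over HSPH1 stood at 0.876 times forage on grain and, in the mitochondrion, HSPD1 over HSPE1 at 1.13 times, both with overlap in both arms. Across compartments, HSPA5 over HSPA8 averaged 0.210 ± 0.0401 in grain_PHY against 0.226 ± 0.0148 in forage_PHY, and 0.254 ± 0.0545 in grain_control against 0.202 ± 0.0547 in forage_control, and overlapped in both arms.

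**Figure D4:**
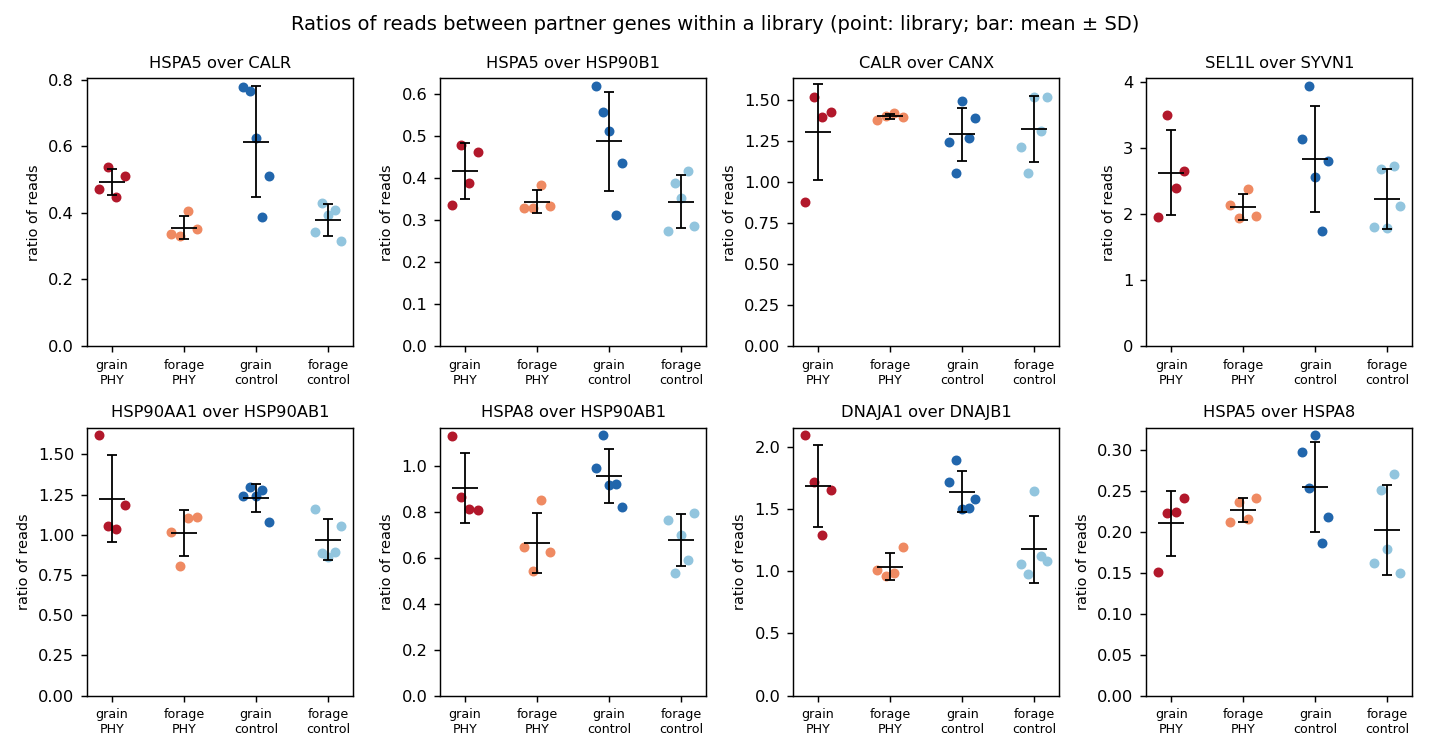
Ratio of reads between partner genes within a library (y axis, starting at 0) by group for 8 of the 11 pairs, with a point per library and the mean ± SD as bars. HSPA5 over CALR separates the diets in PHY cows and HSPA8 over HSP90AB1 in control cows, while CALR over CANX and HSPA5 over HSPA8 overlap throughout.

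By arm, no gene passed the test in PHY cows, in control cows or in the difference between their responses (0% of 22202 genes in each). In PHY cows, 37 of 39 genes were below 0 with a median log2 fold change of -0.54, for both the 15 ER folding genes (-0.54) and the 10 cytosolic genes (-0.55). The median was 0.21 for all genes and -0.48 for genes at the level of most members. The smallest p belonged to EDEM1 (-0.84 ± 0.25 (SE, adjusted p = 0.0696)), HSF1 (-0.74 ± 0.26 (SE, adjusted p = 0.0727)) and SYVN1 (-0.65 ± 0.24 (SE, adjusted p = 0.0758)). In that contrast 0 of 22202 genes passed with edgeR and 8820 had an unadjusted p under 0.05, as had 15 of the 39 members. DESeq2 called 5 members, all lower, where it called 6.41% of all genes lower and 17.8% higher. With limma 16 members were called, all lower, beside 15.4% of all genes lower and 20.2% higher. A fit of the PHY libraries alone called 3 members, all lower, beside 6.18% lower and 17.9% higher. The members' median was -0.34 with at least 10000000 reads, and with the covariate it turned to 0.16, with 29 of 39 above 0. No member had every grain_PHY library above every forage_PHY library, as 14.2% of all genes tested and 1.95% of the genes at the level of most members had.

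In control cows, 26 of 39 genes were below 0 with a median of -0.15, against 0.14 for all genes and -0.25 for genes at the level of most members. Of the ER chaperones 8 of 11 were above 0, and their median was 0.05, with HSPA5 at 0.29 ± 0.31 (SE) and DNAJC3 at 0.29 ± 0.27. The cytosolic genes had a median of -0.25. These directions rested on few libraries. The median of all members ran from -0.34 without grain_control 5 to -0.0338 without forage_control 5, and was also more than 1.5 times smaller or larger without grain_control 1 (-0.0497) or without forage_control 2 (-0.27) or 3 (-0.24). It was 0.0019 after thinning, 0.0693 with at least 10000000 reads and 0.25 with the covariate. The median of the 15 ER folding genes, 0.0305, turned to -0.19 without grain_control 5, to -0.0969 without forage_control 2, to -0.0758 without forage_control 3, to -0.0561 without grain_control 3, to -0.0401 without grain_control 2 and to -0.0909 with limma. The smallest p were those of HSF1 (-0.56 ± 0.23 (SE, adjusted p = 0.432)), HSPB1 (-0.79 ± 0.34 (SE, adjusted p = 0.432)) and TRIB3 (1.09 ± 0.58 (SE, adjusted p = 0.432)). With edgeR 0 of 22202 genes passed and 2518 had an unadjusted p under 0.05, among them HSF1 and HSPB1, and DESeq2 and limma called 0 members too. No member separated the diets in control cows (0 of 39), where 0.86% of all genes, and 1.9% of those at the level of most members, were lower without overlap and 0.491% of all genes higher.

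The difference between the diet responses, PHY minus control, was below 0 for 37 of 39 genes, with a median of -0.51 for the ER folding genes and -0.26 for the cytosolic genes, against 0.02 for all genes and -0.23 for genes at the level of most members. The ER median was -0.34 without grain_PHY 1 and -0.17 with the covariate. The cytosolic median was -0.0458 without grain_control 5, -0.0939 without forage_control 2, -0.10 without grain_PHY 1, -0.47 without forage_control 5, -0.42 without grain_PHY 4, -0.39 without grain_control 1, -0.0952 with limma and 0.0905 with the covariate. The 3 smallest p were those of DNAJB11 (-0.64 ± 0.32 SE), EDEM1 (-0.61 ± 0.33) and DNAJC3 (-0.66 ± 0.41), each with an adjusted p of 0.954. With edgeR 0 genes passed, 442 of 22202 had an unadjusted p under 0.05 and none of them was a member. DESeq2 and limma called 0 members.

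**Figure D5:**
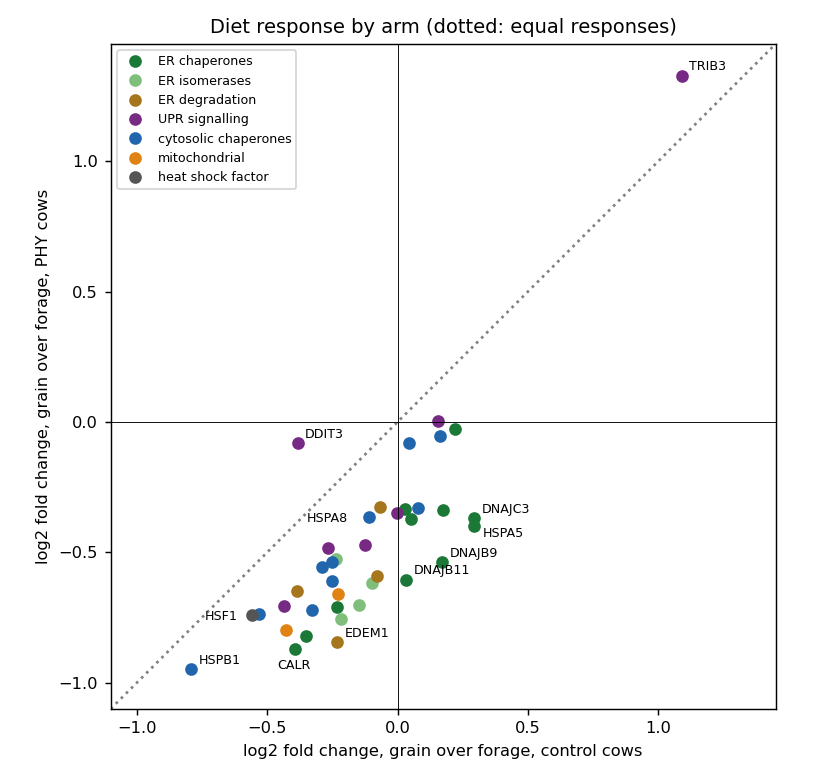
Log2 fold change of grain over forage in PHY cows (y axis) against that in control cows (x axis) for the 39 genes, coloured by role, with equal responses on the dotted line. All but DDIT3 and TRIB3 lie below the line, and 8 of 11 ER chaperones lie to the right of 0 in control cows.

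PHY against control was also compared within each diet, and no gene passed the test on either (0% of 22202). On forage, where the values use the forage libraries of the diet comparisons again, 28 of 39 members were above 0 with a median log2 fold change of 0.10. It was -0.02 for all genes and 0.08 for genes at the level of most members. The members' median ran from 0.0253 without forage_control 2 to 0.21 without forage_control 5, and was 0.0194 with the covariate. The smallest p were those of CRELD2 (0.43 ± 0.32 SE), DNAJB11 (0.17 ± 0.23) and PDIA3 (0.21 ± 0.29), each with an adjusted p of 0.9999. With edgeR 0 of 22202 genes passed, 356 had an unadjusted p under 0.05 and none of these was a member. No member separated the forage groups, where 0.338% of all genes were higher and 0.216% lower in forage_PHY without overlap.

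On grain, 38 of 39 members were below 0 in PHY cows, DDIT3 being the exception at 0.25 ± 0.25, and the median was -0.27, against 0.01 for all genes and -0.13 for genes at the level of most members. The members' median was -0.12 without grain_control 5, -0.16 without grain_PHY 1, -0.14 with limma and -0.0605 with the covariate, under which 11 of 39 were above 0. DNAJB9 had the smallest p (-0.88 ± 0.38 SE), followed by DNAJB11 (-0.47 ± 0.23) and EDEM1 (-0.46 ± 0.24), each with an adjusted p of 0.999. With edgeR 0 genes passed and 571 of 22202 had an unadjusted p under 0.05, among the members only DNAJB9. DNAJB11 was the 1 member whose grain_PHY and grain_control libraries did not overlap, as were 0.405% of all genes in that direction. DESeq2 and limma called 0 members on either diet.

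Within groups, the chaperones varied together from library to library. After the group means were taken off, the 105 pairs of ER folding genes had a median Pearson r of 0.78 over the 18 libraries, the 45 pairs of cytosolic genes 0.82, and the 150 pairs of an ER and a cytosolic gene 0.75. These are descriptions, and no r was computed for other genes of similar level. The points share depth, background and the TMM factor of each library: grain_PHY 1 was low after scaling for most of these genes at once. The 21 pairs among the signalling genes had a median r of 0.07, from -0.75 to 0.90. TRIB3 ran against the chaperones, with r of -0.76 to HSPA5 and -0.73 to HSP90B1. It had only 9 to 59 reads per library, and its highest CPM were in grain_PHY 1 and grain_control 1, the libraries of fewest reads. The part of depth and background in these r was not tested.

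Other genes of the same pathways, from lists drawn up with earlier results of these data known, were counted in the same fit over both arms. Of 62 other genes of ER folding, translocation and degradation, 18 fell and 3 rose, with a median log2 fold change of -0.40. The translocon subunits SEC61B (-0.76 ± 0.21 SE, adjusted p = 0.0219) and SEC61G (-0.70 ± 0.24, adjusted p = 0.0334) and the prolyl isomerase FKBP2 (-0.71 ± 0.20, adjusted p = 0.0217) had the 3 largest falls. The prolyl isomerase FKBP14 (0.56 ± 0.19, adjusted p = 0.0338) and the disulfide isomerase PDIA5 (0.53 ± 0.20, adjusted p = 0.0459) rose, and so did the glucosyltransferase UGGT2 at a mean under 5 CPM.

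Of 40 tested genes of the wider unfolded protein and integrated stress responses, 7 fell and 1 rose (FGF21, at under 5 CPM), with a median of -0.26. Those that fell included NFE2L2, the master factor of the antioxidant response (log2 fold change -0.65 ± 0.21 SE, adjusted p = 0.0308), the glycyl-tRNA synthetase GARS1 (-0.60 ± 0.23, adjusted p = 0.0486) and the ATF4 partner CEBPG (-0.60 ± 0.18, adjusted p = 0.0243). Of 55 other cytosolic heat shock genes, 13 fell and 2 rose (HSPB3 and HSPB9, both at under 5 CPM), with a median of -0.37. The chaperone-bound ubiquitin ligase STUB1 averaged 40.5 ± 13.9 CPM on grain and 67.2 ± 13.2 CPM on forage (SD, n = 9 each) and fell (-0.75 ± 0.20, adjusted p = 0.0216). The Hsp70 co-chaperone BAG1 (-0.72 ± 0.22, adjusted p = 0.0247) and the Hsp90 co-chaperone CDC37 (-0.70 ± 0.21, adjusted p = 0.0257) fell as well. HSPA1A, the stress-induced Hsp70, which has near-identical copies that could share its reads, had a log2 fold change of -0.51 ± 0.23 (adjusted p = 0.0766).

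Of 12 other mitochondrial chaperones and proteases, 7 fell and none rose, with a median of -0.48. HSPA9, the mitochondrial Hsp70, averaged 355 ± 132 CPM on grain and 563 ± 98.6 CPM on forage (SD, n = 9 each) and fell (-0.68 ± 0.23, adjusted p = 0.0318). The protease LONP1 (-0.69 ± 0.17, adjusted p = 0.0205) and the exchange factor GRPEL1 (-0.67 ± 0.19, adjusted p = 0.0225) fell as well. These shares stand beside the 32.8% of genes at the level of most members that fell in the same fit.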

How the data were processed

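Read counts per gene came from the authors' deposited table, which holds whole-number counts for 27270 genes in 18 libraries. Per the submitters' processing notes, reads were demultiplexed with bcl2fastq 2.20, the build was bosTau9 and DESeq2 (version not stated) was used. For aligner, counter, annotation and strand setting the sources used here give nothing, so overlapping, antisense and near-identical genes could share reads. Per the labels' protocols, libraries were made from total RNA with a stranded kit. Genes go by the symbols of that table, and no coordinates or sequences are given.

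edgeR 4.0.16 under R 4.3.3 compared the groups with its quasi-likelihood F test, after filterByExpr by group and TMM normalization, with 1 mean per group, no covariate and 1 estimate of the spread over all 18 libraries (biological coefficient of variation 51.4%). Cow was not in the model, since no label names the cow of a library. The 6 contrasts were grain against forage over both arms, in PHY cows and in control cows, PHY against control on forage and on grain, and the difference of the diet responses. Calls were made where the adjusted p (Benjamini-Hochberg over the 22202 genes tested) was under 0.05. The SE of a log2 fold change is its size divided by the square root of F. CPM used effective library sizes. The ER minus cytosolic level is a difference of means of log2(CPM + 1). The members and all gene lists were chosen with earlier results of these data known. Values in every library are given for 13 preset members and for the 3 of smallest p in each contrast. From the 4 lists of other pathway genes, up to 3 called genes in each direction are named, if their higher group averaged 5 CPM or more, and where none was called only some of the genes of smallest p. The model was also run on simulated counts drawn independently for each library. That simulation held no shared cows and no background that differed with diet, so it cannot speak to either.

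Alternatives were DESeq2's size factors, no filter and a stricter one, DESeq2 1.42.0, limma 3.58.1 (voom with quality weights), only the groups compared, olfactory receptor reads as a covariate, thinning to 3953060 reads, only libraries of at least 10000000 reads, and leaving out each library.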

Additional observations from a re-analysis of the deposited data

Results flagged for a closer look

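In each of 140 sets of values (a gene's CPM or a ratio of reads in a group of 4 or 5 libraries), the highest and the lowest library were compared with the rest, and 7 stood apart, about 5% being what chance gives. Of these, 3 were the CPM of grain_PHY 1, the library of fewest reads: HSPA5 at 41.2 CPM, with the others from 115 to 128.5 CPM; HSP90B1 at 122.6 CPM, with the others from 268 to 295 CPM; and XBP1 at 23.3 CPM, with the others from 48.5 to 53.3 CPM. CRELD2 was low in grain_control 4, at 2.64 CPM, with the others from 5.198 to 6.17 CPM. The ratio HSPA5 over HSP90B1 was high in forage_PHY 3, at 0.384, with the others from 0.329 to 0.333. HSP90AA1 over HSP90AB1 was low in grain_control 5, at 1.08, with the others from 1.24 to 1.30. DNAJA1 over DNAJB1 was high in forage_control 3, at 1.64, with the others from 0.974 to 1.12.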

How the results depend on the processing

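No paired analysis was possible because no label names the cow of a library and the replicate numbers only follow the order of deposit.

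Over both arms 8 of the 39 genes were called; the count was 18 with limma (19.7% of all genes lower, 25.9% higher), 11 with DESeq2 (13.8% lower, 28.1% higher), 6 when thinned (8.79% lower, 16.4% higher) or under the stricter filter (12.3% lower, 18.1% higher), 8 with DESeq2's size factors (10.4% lower, 19.4% higher) or no filter (10.5% lower, 15.1% higher), and 0 with the olfactory receptor covariate or with at least 10000000 reads, where 5 had an unadjusted p under 0.05. It ran from 0 (without grain_PHY 1) to 17 (without grain_control 5) when single libraries were left out. In PHY cows it was 0 with edgeR, 5 with DESeq2, 16 with limma, 3 with only the groups compared, and 0 to 1 without single libraries (1 without forage_control 5 or grain_control 1). The counts of the other 4 contrasts were 0 under every alternative run. All 138 alternative values of the ER minus cytosolic level stayed within 1 SD, a limit larger than most of these differences. In PHY cows the sign of the difference changed when single libraries were left out. DESeq2's size factors moved the median of all genes in PHY cows to 0.34, against 0.21 with TMM, and that of the members to -0.43, against -0.54.

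Of the genes given in every library or called, these log2 fold changes of grain over forage turned their sign. With the covariate, under which the median of the members was 0.19 and no p passed, HSPA5 stood at 0.69, HSP90B1 at 0.27, CANX at 0.0338, DNAJB9 at 0.44, DNAJB11 at 0.057, DNAJC3 at 0.60, CRELD2 at 0.19, PDIA3 at 0.23, PDIA4 at 0.0914, HERPUD1 at 0.19, XBP1 at 0.235, ATF4 at 0.16, TRIB3 at -0.12, HSPA8 at 0.46, HSPH1 at 0.56, HSP90AA1 at 0.29, DNAJB1 at 0.11, HSPD1 at 0.20 and HSPE1 at 0.0286. With at least 10000000 reads, HSPA5 stood at 0.30, DNAJB9 at 0.12, DNAJC3 at 0.21, CRELD2 at 0.0555, HSPA8 at 0.0652 and HSPH1 at 0.26. With size factors these were 0.0183 for HSPA5, 0.0444 for DNAJC3, 0.0016 for CRELD2 and 0.0565 for HSPH1, and with DESeq2 0.0181 for HSPA5, 0.0443 for DNAJC3, 9e-04 for CRELD2 and 0.0563 for HSPH1. Under the stricter filter they were 0.0798 for HSPA5, 0.11 for DNAJC3, 0.0786 for CRELD2 and 0.12 for HSPH1, with limma 0.0126 for HSPA5, and thinned 0.14 for HSPA5, 0.0708 for DNAJC3 and 0.0541 for HSPH1. Without single libraries HSPA5 ran from -0.13 to 0.12, DNAJC3 from -0.16 to 0.0935, CRELD2 from -0.16 to 0.0207 and HSPH1 from -0.13 to 0.11. The cause was not tested. The smaller fits also hold fewer libraries or reads, and in PHY cows the covariate cannot be told apart from diet.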

Other observations

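The wider pathway lists held 0 called genes in PHY cows, in control cows, between the arms on either diet or in the difference of the diet responses (edgeR, 0 of 22202 genes in each). Among 62 other ER folding and degradation genes, the smallest p for grain against forage in PHY cows was that of TXNDC11, a thioredoxin-like ER protein, at 18.1 CPM in grain_PHY and 36.4 CPM in forage_PHY (group means; log2 fold change -1.01 ± 0.24 SE, adjusted p = 0.0696). On grain, DNAJC10 (ERdj5), a J-domain reductase of the ER, averaged 12.4 CPM in grain_PHY and 18.9 CPM in grain_control (-0.61 ± 0.22, adjusted p = 0.999 with edgeR).

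In control cows, the smallest p of the wider unfolded protein list was that of TRAF2, an adaptor that IRE1 recruits, at 9.06 CPM in grain_control and 15.3 CPM in forage_control (-0.75 ± 0.21, adjusted p = 0.432 with edgeR). On forage it was ATF3, an immediate stress factor, at 1.78 CPM in forage_PHY and 9.93 CPM in forage_control (-2.44 ± 0.97, adjusted p = 0.9999 with edgeR). Among mitochondrial chaperones on grain it was GRPEL2, an exchange factor, at 7.63 CPM in grain_PHY and 12.1 CPM in grain_control (-0.67 ± 0.24, adjusted p = 0.999 with edgeR).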
